A study of Mus musculus with 20 samples.

Results

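The 48 genes described here encode the machinery that licenses, starts and carries out DNA replication, together with the enzymes that supply nucleotides and chromatin factors used in S phase and the transcription factor gene E2f1. They were listed by mouse gene symbol and matched to the Ensembl identifiers of the deposited table. All 48 were found among its 35226 genes, all 48 passed the filter on low counts, and 16665 genes in all were tested. The 48 genes are protein coding and lie on 16 chromosomes, with 8 on chromosome 5 and 6 on chromosome 8. They fall into 10 roles, which are origin licensing (4 genes), MCM proteins (7), GINS and Cdc45 (5), the sliding clamp and its loaders (7), polymerases and primase (9), RPA and fork protection (4), lagging strand maturation (2), nucleotide supply (4), chromatin and histone supply (5) and E2F (1).

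RNA was measured by sequencing poly(A) RNA of 20 tumors, one library per tumor, grown under the skin of male C57Bl6/J mice from LLC1 cells, an established mouse Lewis lung carcinoma line. Mice with an intact immune system carried the tumors and received vehicle, KW6002 (istradefylline, which blocks adenosine receptors), cisplatin (a platinum drug that crosslinks DNA), or cisplatin plus KW6002, called cotreatment below, with 5 tumors per group. One vehicle tumor, replicate 1, is labeled with a single vehicle and the other 4 with a double vehicle, and all 5 were taken as one group. The study asked whether KW6002, given to protect the kidney, alters what cisplatin does in the tumor. The 48 genes bear on that question through the RNA of DNA replication genes, and DNA synthesis itself was not measured here.

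Each tumor gave 28.4 to 41 M counted reads. A member had a mean of 261.5 to 8826 reads per tumor over the 20 tumors, and the lowest count of any member in any tumor was 167. As checks of the label, the keratin genes Krt8 and Krt18, which mark simple epithelium, were present in every tumor, at 95.2 to 215 and 224 to 378 CPM, where CPM is counts per M reads of the scaled library. Epcam and Sftpc were not: Epcam, an epithelial adhesion gene, had at most 5 reads in any tumor, and Sftpc, a marker of alveolar type II cells, at most 1. The library codes in the sample names fell into an earlier and a later run, with 1 vehicle, 2 KW6002, 2 cisplatin and 3 cotreated tumors in the earlier run and 4, 3, 3 and 2 in the later run.

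Replication starts at origins that are licensed in G1 phase, when ORC, Cdc6 and Cdt1 load the MCM helicase on DNA. In S phase Cdc45 and GINS join MCM to form the active helicase, primase and polymerase alpha lay down primers, and polymerases delta and epsilon extend them while held to DNA by the PCNA clamp. Many of these genes are transcribed in late G1 and S phase under E2F factors, so their RNA is a common readout of cycling cells. In a whole tumor, fewer cells of a type and less RNA per cell cannot be told apart.

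E2F factors bind letters such as TTTCCCGC, TTTGGCGC, TTTCGCGC and TTTGCCGC, and the CCAAT box is bound by NF-Y, a factor of many cell cycle promoters. Promoters from RefSeq (build GRCm38.p6, 250 bases before to 50 after the start of transcription) matched 39 of the 48 members. At least one of the 4 E2F motifs, on either strand, was found in 16 of 39 matched members (41%), against 2.61% of all 27025 genes in the promoter table. CCAAT, on either strand, was in 24 of 39 (61.5%), against 41.1%, and TTTGAA, the core of the CHR element of many G2 and mitosis genes, in 5 of 39 (12.8%), against 20.2%. The looser pattern TTTNNCGC, which takes in the 4 E2F motifs, was in 17 of 39 (43.6%), against 5.93%. The 250 bases before the start of 5 members called lower in the direct comparison of cotreatment with cisplatin are shown to let the motifs be seen in place, each on the strand of its gene and with E2F motifs and CCAAT boxes, in either orientation, in capitals. Overlapping motifs run together, as in Mcm5. In Mcm5 there are 2 overlapping E2F motifs and 2 CCAAT boxes, in Pola1 1 of each, in Mcm3 3 CCAAT boxes, in Mcm2 1, and in Tyms none. Cdc6 and Chaf1b, the other members called there and matched to a promoter, are not shown. Before the start, Cdc6 holds 1 E2F motif and no CCAAT box, and Chaf1b holds neither. Motifs after the start of transcription are not shown, and Mcm3 holds 2 E2F motifs there, which begin at positions 19 and 38 and count among the matches above.
Mcm5, chr8:75109259-75109508, plus strand: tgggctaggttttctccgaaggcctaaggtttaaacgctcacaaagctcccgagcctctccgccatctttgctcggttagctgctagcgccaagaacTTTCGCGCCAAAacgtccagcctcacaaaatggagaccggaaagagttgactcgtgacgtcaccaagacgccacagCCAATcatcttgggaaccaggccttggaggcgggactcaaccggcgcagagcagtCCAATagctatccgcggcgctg
Pola1, chrX:93632156-93632405, minus strand: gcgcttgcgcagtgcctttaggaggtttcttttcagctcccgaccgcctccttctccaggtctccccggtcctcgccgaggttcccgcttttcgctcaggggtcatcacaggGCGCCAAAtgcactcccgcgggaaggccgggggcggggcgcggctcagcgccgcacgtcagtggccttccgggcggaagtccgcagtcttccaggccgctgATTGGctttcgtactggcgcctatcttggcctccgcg
Mcm3, chr1:20820313-20820562, minus strand: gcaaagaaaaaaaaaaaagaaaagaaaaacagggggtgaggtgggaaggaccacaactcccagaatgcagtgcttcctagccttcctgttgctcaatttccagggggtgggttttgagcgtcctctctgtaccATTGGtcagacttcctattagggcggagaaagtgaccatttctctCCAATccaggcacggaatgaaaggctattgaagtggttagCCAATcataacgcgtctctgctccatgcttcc
Mcm2, chr6:88898781-88899030, minus strand: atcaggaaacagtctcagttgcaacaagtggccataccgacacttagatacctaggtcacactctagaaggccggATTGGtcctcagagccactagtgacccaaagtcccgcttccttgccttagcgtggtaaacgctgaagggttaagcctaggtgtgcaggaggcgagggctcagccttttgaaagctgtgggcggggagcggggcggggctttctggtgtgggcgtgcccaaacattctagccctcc
Tyms, chr5:30073626-30073875, minus strand: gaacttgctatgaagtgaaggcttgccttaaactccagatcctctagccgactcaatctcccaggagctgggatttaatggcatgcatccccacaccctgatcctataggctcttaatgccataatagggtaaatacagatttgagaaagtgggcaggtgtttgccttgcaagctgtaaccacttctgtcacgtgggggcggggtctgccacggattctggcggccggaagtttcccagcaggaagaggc
A match of letters is a description and does not show that a factor binds there.

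Throughout, a gene was called changed in a comparison if edgeR's quasi-likelihood test, fitted on all 20 tumors and adjusted over all 16665 genes by the Benjamini-Hochberg method, gave an adjusted P under 0.05 and an absolute log2 fold change of at least 0.32. Positions are on GRCm38. The tumors are the replicates. Each test weighs a difference between groups against the spread between tumors within groups, estimated over the 4 groups together.

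KW6002 alone left no detectable change in any of the 48 genes. With edgeR 0 members were called, as were 0% of all genes, and DESeq2 also called 0. Only Rpa3, with a log2 fold change of -0.16, had an unadjusted P under 0.05. The log2 fold changes of the members lay between -0.16 and 0.10 with a median of -0.03.

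Cisplatin alone lowered 1 of the 48 genes past both thresholds, Pola1, which encodes the catalytic subunit of polymerase alpha. This is 2.08% of the members, against 4.57% of all genes called lower, and no member was called higher, against 6.01% of all genes. On adjusted P alone, with no fold limit, 8 members were lower (8.24% of all genes were). These were Pola1, Mcm6, Hells, Pole2, Rfc1, Prim1, Mcm3 and Pold3, with log2 fold changes from -0.18 to -0.36. The median of the 48 was -0.12, against 0.00 for all genes, and 41 were below 0 (39 to 41 under the other scalings and filters on low counts, and 34 in the later run of library codes alone). In 2 members, Mcm6 and Pold3, every cisplatin tumor lay below every vehicle tumor (5.12% of all genes did so).

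Cotreatment lowered 23 of the 48 genes (47.9%) against vehicle, where 10.4% of all genes were called lower, and raised none, where 13.1% of all genes were called higher. All 48 were below 0, as they were under DESeq2 and each other scaling, whereas 52.2% of all genes were. Their median log2 fold change was -0.32, against -0.02 for all genes, and single values ran from -0.08 for Rrm2 to -0.72 for Pola1. On adjusted P alone 35 members were lower (17.7% of all genes were). In 27 members every cotreated tumor lay below every vehicle tumor (12.4% of all genes did so).

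Set directly against cisplatin, cotreatment lowered 9 members (18.8%), where 1.71% of all genes were. These were Cdc6, Mcm2, Mcm3, Mcm5, Gins1, Rfc2, Pola1, Tyms and Chaf1b. On adjusted P alone there were 16 (3.22% of all genes passed), and in 21 members every cotreated tumor was below every cisplatin tumor (2.5% of all genes). All 48 were below 0 under each scaling, with a median of -0.21, where 51.2% of all genes were below 0 with a median of -0.01. The 9 genes were also among the 23 called against vehicle, a comparison that uses the same cotreated tumors. The call count rested on single tumors and on the model: it was 3 (Mcm2, Mcm3 and Tyms) without cotreated replicate 2 or when only these 10 tumors were fitted, and 12 without cotreated replicate 4.

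**Figure D1:**
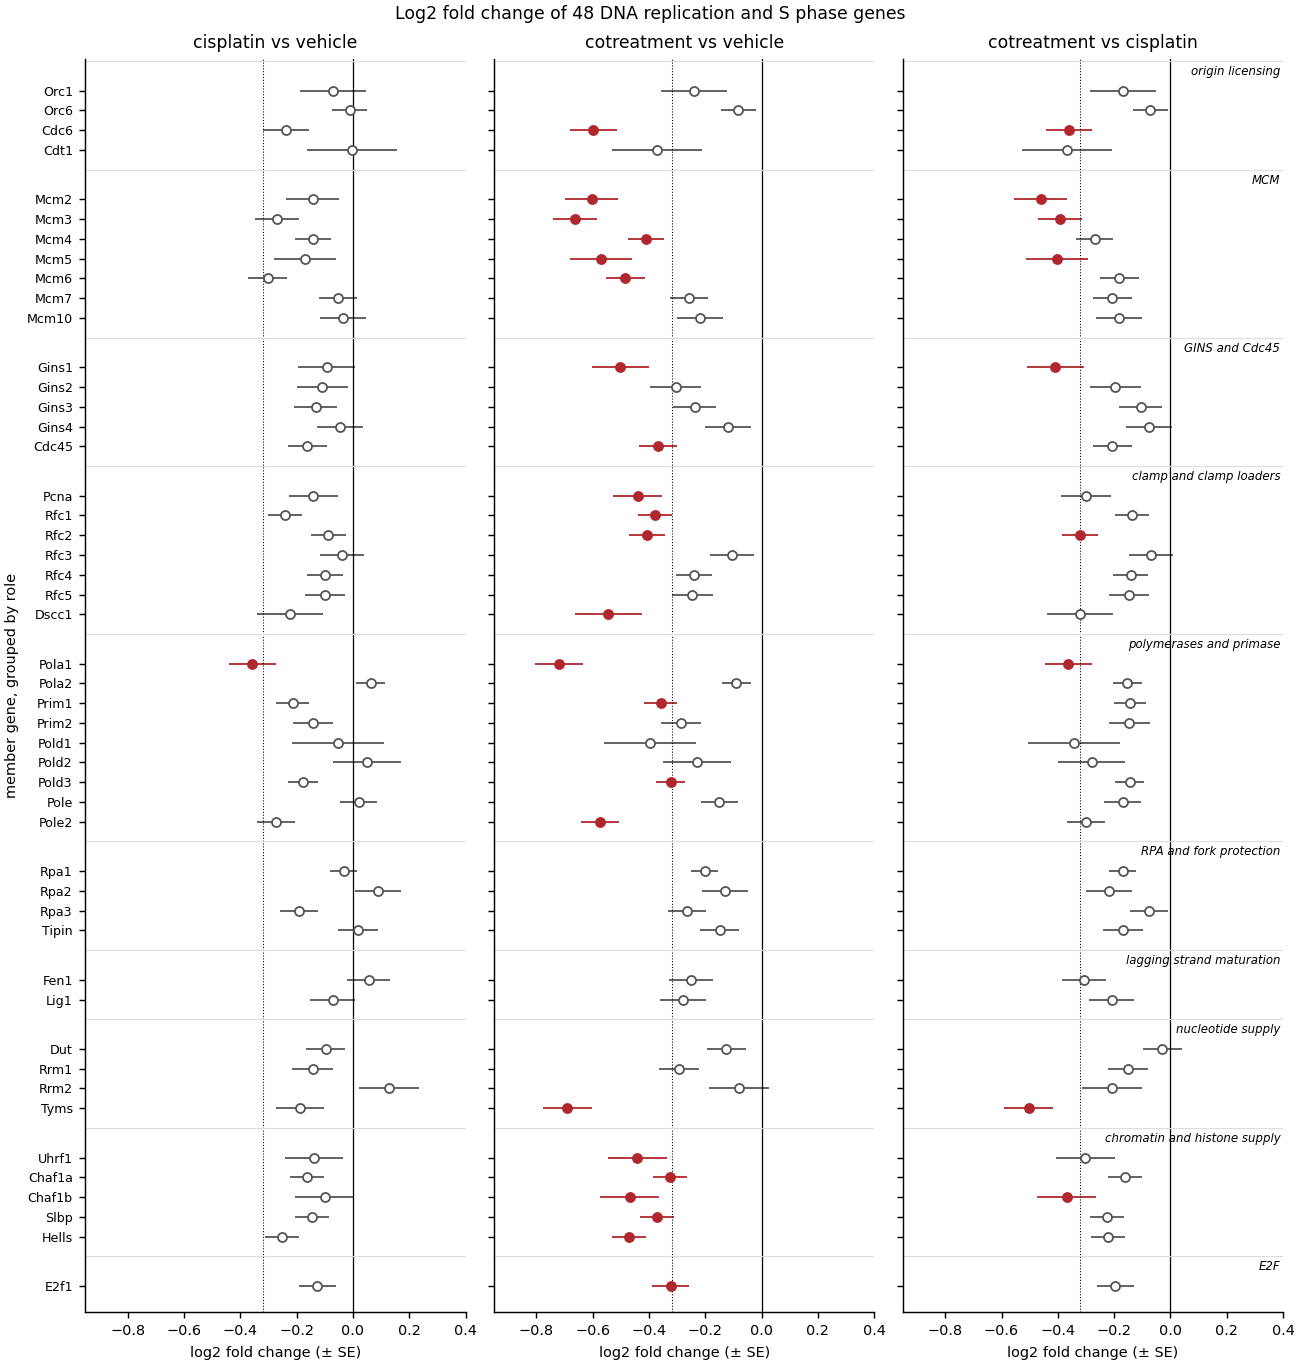
Log2 fold change of each of the 48 members, grouped by role, in cisplatin against vehicle, cotreatment against vehicle and cotreatment against cisplatin. Points are edgeR estimates and bars their SE, filled red points were called (1, 23 and 9 members), the solid line is 0 and the dotted line the fold limit of -0.32. All 48 points lie left of 0 in the middle and right panels.

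Against KW6002 alone, cotreatment lowered 19 members (39.6%), where 10.7% of all genes were called lower, with a median of -0.28. On adjusted P alone 32 members were lower (17.6% of all genes were). Of the 19 called members, 18 were also called against vehicle. Pold1, a catalytic subunit of polymerase delta, was called only here, at -0.45, beside -0.40 (adjusted P = 0.0666, edgeR) against vehicle. Whether KW6002 acted differently with and without cisplatin was tested as the interaction of both drugs. With edgeR 0 members passed the adjusted threshold, as against 0.03% of all genes called lower, and DESeq2 called 2, Cdc6 and Tyms. At an unadjusted P under 0.05 there were 18 members, where 12.2% of all genes passed, and 46 of the 48 estimates were below 0 with a median of -0.17. The largest were -0.46 for Cdc6 (SE 0.117, adjusted P = 0.11, edgeR) and -0.46 for Tyms (SE 0.122, adjusted P = 0.128, edgeR).

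The mean log2 CPM of the 48 genes was computed for each tumor relative to the vehicle mean. It was 0.02, -0.13, 0.07, 0.01 and 0.03 in vehicle tumors 1 to 5 and 0.07, -0.14, 0.08, -0.02 and -0.13 in KW6002 tumors. Cisplatin tumors 1 to 5 stood at -0.20, -0.10, -0.15, 0.00 and -0.10. The cotreated tumors stood at -0.45, -0.31, -0.46, -0.25 and -0.23. Every cotreated tumor lay below every other tumor, and the cisplatin range overlapped those of vehicle and KW6002. The group means were 0.00 ± 0.0746, -0.03 ± 0.107, -0.11 ± 0.0738 and -0.34 ± 0.107 (SD, n = 5).

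The cotreated tumors of the earlier run lay below those of the later run, whereas the cisplatin tumors of both runs overlapped in this mean. In the earlier run the mean was -0.15 over 2 cisplatin tumors and -0.41 over 3 cotreated tumors, and in the later run it was -0.09 over 3 and -0.24 over 2, and in neither run did the cotreated range overlap the cisplatin range. Within the later run 10 members were called lower in cotreatment against vehicle (5.34% of all genes were), 9 against KW6002 (4.37% of all genes were) and 2, Pola1 and Rfc1, in cisplatin against vehicle (6.93% of all genes were). Within that run 0 were called in cotreatment against cisplatin (edgeR, with 0.00581% of all genes called lower, 10 members at an unadjusted P under 0.05, 44 of 48 below 0). Within the earlier run 4 were called against cisplatin, Mcm3, Pola1, Tyms and Chaf1b (8.33%, against 0.627% of all genes). No comparison with vehicle is given for the earlier run, which holds 1 vehicle tumor.

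**Figure D2:**
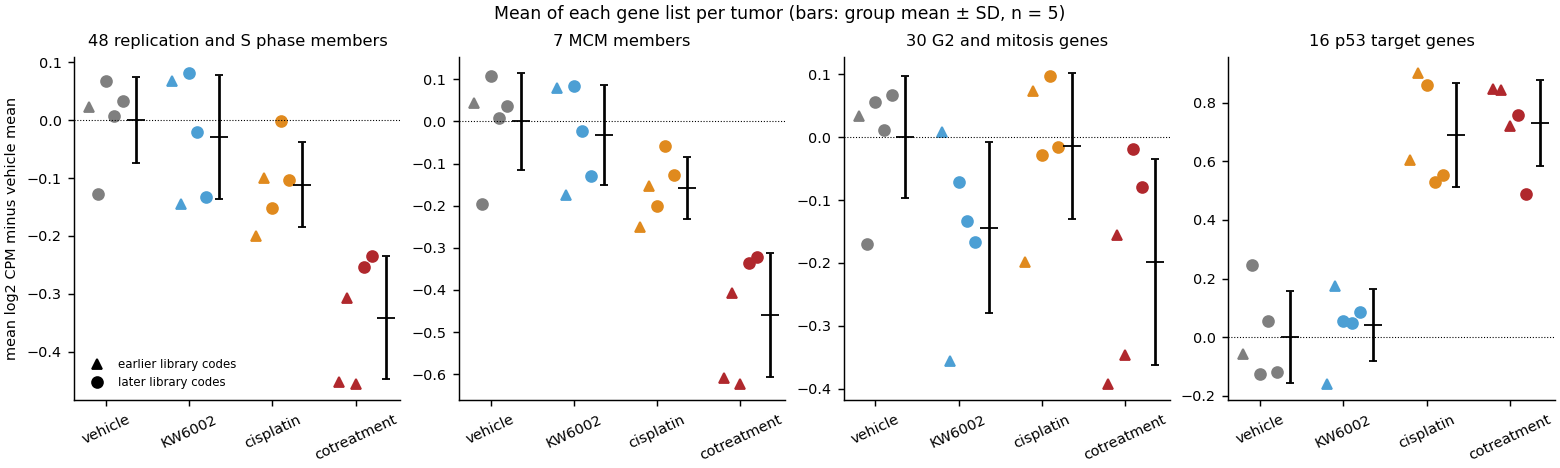
Mean log2 CPM of a gene list in each tumor minus the vehicle mean, for the 48 members, the 7 MCM members, 30 G2 and mitosis genes and 16 p53 target genes. Triangles are tumors with earlier and circles with later library codes, and horizontal marks with bars are group means ± SD (n = 5). In the first panel the 5 cotreated tumors sit between -0.46 and -0.23, below all others.

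Origin licensing. Of the 4 licensing genes 1, Cdc6, was called lower after cotreatment, both against vehicle and against cisplatin. Here and in the roles below, 10.4% and 1.71% of all genes were called lower in these comparisons. On adjusted P alone the shares were 17.7% and 3.22%. Cdc6 (ENSMUSG00000017499, chr11:98907801-98923940), the loader that recruits MCM with ORC, was at 36.2, 30.8, 38.9, 37.9 and 37.9 CPM in vehicle tumors 1 to 5 and at 44.0, 34.9, 42.2, 37.8 and 36.0 CPM with KW6002. It was at 27.3, 33.6, 29.9, 32.5 and 30.7 CPM after cisplatin and at 22.9, 21.9, 22.3, 26.8 and 26.1 CPM after cotreatment. All 5 cotreated tumors were below all 15 others, while the cisplatin tumors overlapped the vehicle tumors. The log2 fold change of Cdc6 was -0.24 for cisplatin (adjusted P = 0.0518), -0.60 for cotreatment (SE 0.0828, adjusted P = 1.57e-05) and -0.36 for cotreatment against cisplatin (adjusted P = 0.014, edgeR), and the last lost its call without cotreated replicate 2 or 3. Its RefSeq promoter holds 1 E2F motif, which begins at position -138 from the start of transcription. Orc6, a subunit of the origin recognition complex, had the smallest difference of the 4, -0.08 against vehicle. Cdt1, which loads MCM together with Cdc6, was at 34.6 ± 6.32, 34.5 ± 8 and 26.7 ± 4.44 CPM in vehicle, cisplatin and cotreated tumors (SD, n = 5), and its log2 fold change of -0.37 missed the threshold (adjusted P = 0.077, edgeR).

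MCM proteins. Mcm2 to Mcm7 form the ring-shaped helicase and Mcm10 helps to activate it. Of the 7 genes 5 (Mcm2, Mcm3, Mcm4, Mcm5 and Mcm6) were called lower after cotreatment against vehicle and 3 (Mcm2, Mcm3 and Mcm5) against cisplatin, with no call for cisplatin alone. The per-tumor mean of the 7 was -0.16 ± 0.0727 after cisplatin and -0.46 ± 0.147 after cotreatment (SD, n = 5). The 7 differed in size: against vehicle the cotreatment values ran from -0.22 for Mcm10 and -0.26 for Mcm7 to -0.66 for Mcm3.

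Mcm3 (ENSMUSG00000041859, chr1:20802968-20820312) was at 257, 224, 279.7, 263 and 259 CPM in vehicle tumors and 266, 222, 270.4, 252 and 235 CPM in KW6002 tumors. After cisplatin its values were 197, 215, 199, 227 and 226 CPM, and after cotreatment 146, 163, 140.1, 178 and 183 CPM. The cotreated tumors did not overlap any other group, and replicates 1 and 3 were lowest. From 257 ± 20.1 CPM in vehicle Mcm3 fell to 162 ± 18.9 CPM in cotreated tumors (SD, n = 5), or -0.66 on the log2 scale (adjusted P = 2.6e-06), and the fall against cisplatin was -0.39 (adjusted P = 0.00609, edgeR). For cisplatin alone the value was -0.27 (adjusted P = 0.0212, edgeR), short of the fold limit.

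Mcm2 (ENSMUSG00000002870, chr6:88883474-88898780) was measured at 146, 123, 158, 125 and 135 CPM in vehicle and 142, 128, 154, 132 and 118 CPM in KW6002 tumors. Cisplatin tumors had 117, 110.0, 121, 143 and 132 CPM and cotreated tumors 78.3, 97.2, 77.6, 102.3 and 97.5 CPM. Again the cotreated group lay wholly below the other groups, whereas cisplatin and vehicle overlapped widely. Mcm2 was at -0.14 on the log2 scale for cisplatin (adjusted P = 0.313), -0.60 for cotreatment (adjusted P = 5.78e-05) and -0.46 for cotreatment against cisplatin (adjusted P = 0.00713, edgeR).

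Mcm6 (ENSMUSG00000026355, chr1:128331590-128359664) was lower after cisplatin alone on adjusted P, though not called. It was at 293, 275, 317, 343 and 321 CPM in vehicle and 303, 277, 323, 308 and 315 CPM in KW6002 tumors. It was at 249, 256, 229, 259 and 262 CPM after cisplatin and 199, 220.4, 201, 244 and 244 CPM after cotreatment. Every tumor given cisplatin, with or without KW6002, was below every vehicle tumor, and the cisplatin and cotreated ranges overlapped. The log2 fold change was -0.30 for cisplatin (adjusted P = 0.00528), just short of the fold limit, -0.48 for cotreatment (adjusted P = 2.24e-05) and -0.18 between them (adjusted P = 0.119, edgeR). Mcm5 fell from 161 ± 21.2 CPM in vehicle and 143 ± 17.2 CPM in cisplatin to 108 ± 16.2 CPM in cotreated tumors (SD, n = 5). Per kb of exon, Mcm3 (68.4 CPM per kb in vehicle) and Mcm6 (66.4) stood above Mcm2 (19.8), although the exon lengths take in all annotated transcripts.

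GINS and Cdc45. Of these 5 genes, whose products complete the active helicase, 2 were called lower after cotreatment against vehicle, Gins1 and Cdc45, and 1, Gins1, against cisplatin. Gins1 (ENSMUSG00000027454, chr2:150905400-150931280) was at 15.9, 13.0, 15.5, 15.0 and 16.1 CPM in vehicle and 16.7, 12.9, 16.9, 15.8 and 12.7 CPM in KW6002 tumors. It was at 12.5, 13.0, 14.0, 16.7 and 14.8 CPM after cisplatin and 9.76, 10.2, 9.75, 11.8 and 11.9 CPM after cotreatment. Its 5 cotreated values were the lowest of the 20. On the log2 scale Gins1 was at -0.09 for cisplatin, -0.50 for cotreatment (adjusted P = 0.000666) and -0.41 against cisplatin (adjusted P = 0.021, edgeR), and the last call was lost without any 1 of cotreated replicates 1, 2 and 3 or cisplatin replicates 4 and 5. Against vehicle the cotreatment value ran from -0.54 to -0.31 over 30 other settings, and that call was lost in 1. Gins2, Gins3 and Gins4, the other subunits of the same complex, had cotreatment values of -0.31, -0.24 and -0.12 against vehicle, none past both thresholds.

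Cdc45 (ENSMUSG00000000028, chr16:18780447-18811987) was at 58.2, 58.7, 61.4, 64.0 and 66.1 CPM in vehicle and 64.3, 50.4, 65.7, 61.1 and 55.5 CPM in KW6002 tumors. Cisplatin tumors had 50.7, 53.6, 57.9, 60.2 and 53.5 CPM and cotreated tumors 44.6, 48.5, 45.6, 49.9 and 50.6 CPM. The cotreated tumors lay below all vehicle and cisplatin tumors, the latter by a narrow gap, and overlapped KW6002 tumors. Cdc45 fell by 22.5% against vehicle (-0.37, adjusted P = 0.000318), and the difference from cisplatin was -0.21 (adjusted P = 0.0752, edgeR). Exons of Cdc45 overlap Ufd1 on the opposite strand. The kit keeps strand, but the strand setting of the counting is not stated, and reads of such pairs cannot be told apart where strand is not used. Such overlaps with a gene on the opposite strand exist for 14 of the 48 members, among them Rfc2, Fen1, Lig1 and Chaf1a.

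The clamp and its loaders. Pcna encodes the ring that holds polymerases on DNA, Rfc1 to Rfc5 the complex that loads it, and Dscc1 part of an alternative loader used for cohesion. Of the 7 genes, Pcna, Rfc1, Rfc2 and Dscc1 were called lower after cotreatment against vehicle and Rfc2 against cisplatin. Rfc3 had the smallest value against vehicle, -0.11, and Dscc1 the largest, -0.54.

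Pcna (ENSMUSG00000027342, chr2:132249162-132253314) was at 90.6, 86.0, 99.8, 89.7 and 95.9 CPM in vehicle and 100.5, 82.2, 106, 96.2 and 85.1 CPM in KW6002 tumors. It was at 73.2, 78.9, 84.7, 99.7 and 82.6 CPM after cisplatin and 64.0, 67.1, 57.6, 77.2 and 74.3 CPM after cotreatment. Cotreated tumors overlapped neither vehicle nor KW6002 tumors, while cisplatin tumors overlapped all 3 groups. Pcna fell from 92.4 ± 5.45 to 68.1 ± 7.88 CPM (SD, n = 5), or -0.44 on the log2 scale (adjusted P = 0.000573), and the difference from cisplatin was -0.30 (adjusted P = 0.0444, edgeR), short of the fold limit. Over 30 other settings the value against vehicle ran from -0.48 to -0.27, and its call was lost in 1. A processed copy, Pcna-ps2, had a mean of 235 reads per tumor beside 2747 for Pcna, and only reads that align to 1 place were counted.

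Rfc2 (ENSMUSG00000023104, chr5:134581366-134601805) was at 88.5, 85.0, 94.0, 87.3 and 96.5 CPM in vehicle and 91.2, 87.2, 93.5, 86.9 and 81.9 CPM in KW6002 tumors. Cisplatin tumors had 80.9, 77.6, 83.9, 94.0 and 88.4 CPM, and cotreated tumors 60.9, 65.4, 65.2, 74.2 and 74.4 CPM. The 5 cotreated tumors were the lowest of the 20. Rfc2 was at -0.41 on the log2 scale for cotreatment (adjusted P = 5.22e-05) and -0.32 against cisplatin (adjusted P = 0.00585, edgeR), the latter at the fold limit. That call was lost in 18 of 31 other settings, among them DESeq2 at -0.31 and fits without any 1 of cotreated replicates 1, 2 and 3 or cisplatin replicates 4 and 5, at -0.31 to -0.28. Exons of Rfc2 overlap Lat2, an immune cell adaptor gene, on the opposite strand.

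Rfc1 (ENSMUSG00000029191, chr5:65261850-65335670), the large loader subunit, was at 122, 119, 124, 137 and 134 CPM in vehicle and 121, 120.5, 130.1, 122 and 128 CPM in KW6002 tumors. It was at 123, 117, 97.9, 101 and 99.6 CPM after cisplatin and 98.7, 93.3, 98.5, 98.4 and 100.3 CPM after cotreatment. The cisplatin tumors split by library code, with replicates 1 and 2 of the earlier run inside or near the vehicle range and replicates 3 to 5 of the later run inside or near the cotreated range. The log2 fold change was -0.24 for cisplatin (adjusted P = 0.00987), -0.38 for cotreatment (adjusted P = 7.64e-05) and -0.14 between them (adjusted P = 0.18, edgeR), and in the later run alone the cisplatin value was -0.35 and Rfc1 was called lower.

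Polymerases and primase. Of 9 genes, Pola1, Prim1, Pold3 and Pole2 were called lower after cotreatment against vehicle, and Pola1 against cisplatin as well. Within the primase and polymerase alpha complex the subunits differed: the cotreatment values were -0.72 for Pola1, -0.36 for Prim1, -0.29 for Prim2 and -0.09 for the accessory subunit Pola2 (adjusted P = 0.178, edgeR). Pole, the catalytic subunit of polymerase epsilon, was at -0.15 (adjusted P = 0.0751, edgeR), beside -0.57 for its partner Pole2.

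Pola1 (ENSMUSG00000006678, chrX:93304767-93632155) was at 70.4, 76.5, 81.3, 89.4 and 86.4 CPM in vehicle and 81.3, 69.4, 76.9, 77.7 and 80.3 CPM in KW6002 tumors. It was at 69.3, 72.3, 59.6, 56.5 and 57.8 CPM after cisplatin and 44.9, 44.1, 46.4, 55.8 and 54.2 CPM after cotreatment. Cotreated tumors lay below all others, and within the cisplatin group replicates 1 and 2, of the earlier run, were highest, with replicate 2 inside the vehicle range and replicate 1 just under it. Pola1 fell by 21.9% after cisplatin (-0.36, SE 0.0838, adjusted P = 0.00622), by 39.3% after cotreatment (-0.72, SE 0.0843, adjusted P = 2.32e-06) and by 22.2% from cisplatin to cotreatment (-0.36, SE 0.0841, adjusted P = 0.0146, edgeR). The cisplatin call was lost at -0.32 without vehicle replicate 4 and at -0.31 without cisplatin replicate 4. The call against cisplatin was lost at -0.31 without cisplatin replicate 2 and at -0.33 without cotreated replicate 2, and the value was -0.07 in the later run alone. Over 31 other settings the value against cisplatin ran from -0.64 to -0.07.

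Pole2 (ENSMUSG00000020974, chr12:69201773-69228195) was at 40.9, 36.9, 38.6, 38.8 and 36.7 CPM in vehicle and 41.5, 32.2, 37.4, 37.8 and 36.5 CPM in KW6002 tumors. Its cisplatin values were 31.0, 36.7, 29.8, 31.4 and 30.1 CPM and its cotreatment values 25.1, 25.5, 24.7, 27.9 and 25.8 CPM. The cotreated tumors lay below all others, and cisplatin replicate 2 reached the vehicle range while the other 4 cisplatin tumors did not. Pole2 stood at -0.27 on the log2 scale for cisplatin (adjusted P = 0.0089), -0.57 for cotreatment (adjusted P = 2.59e-06) and -0.30 between them (adjusted P = 0.0125, edgeR). Pold1 was the most variable member, with a within-group SD of 0.28 on the log2 scale, and its cotreatment value was -0.40 (adjusted P = 0.0666, edgeR).

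**Figure D3:**
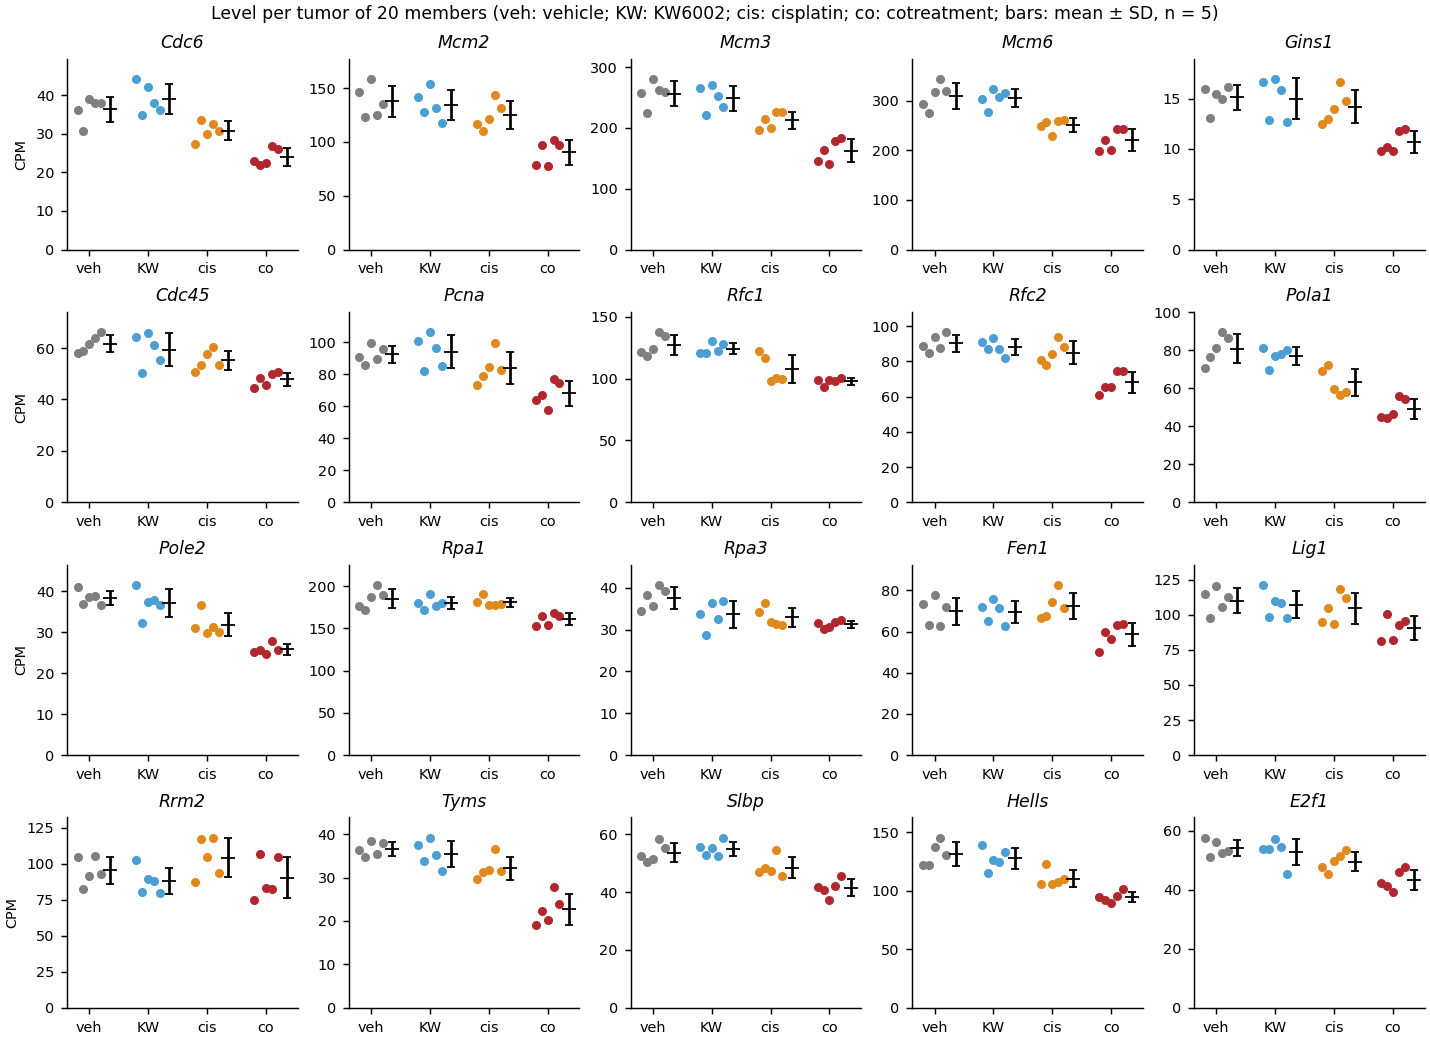
CPM in each of the 20 tumors for 20 members named by rule, with group means ± SD (n = 5) and axes starting at 0. In Cdc6, Mcm2, Mcm3, Gins1, Rfc2, Pola1, Pole2, Rpa1, Tyms, Slbp and Hells the cotreated tumors lie below all other tumors, while those of Lig1 and Rrm2 overlap every group.

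RPA and fork protection. RPA coats single-stranded DNA, and Tipin protects stalled forks. None of the 4 genes was called in any comparison, and 2, Rpa1 and Rpa3, were lower after cotreatment against vehicle on adjusted P alone. Rpa1 (ENSMUSG00000000751, chr11:75298166-75348324) was at 177, 172, 188, 201 and 189 CPM in vehicle and 180.2, 171, 191, 176 and 179.8 CPM in KW6002 tumors. It was at 182, 190.1, 177, 177 and 179 CPM after cisplatin and 153, 165, 154, 169 and 165 CPM after cotreatment. All cotreated tumors were below all others, by a difference that was small: -0.20 against vehicle (SE 0.0486, adjusted P = 0.00271) and -0.17 against cisplatin (adjusted P = 0.0405, edgeR). Rpa1 had the smallest within-group SD of the members, 0.0657 on the log2 scale.

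Rpa3 (ENSMUSG00000012483, chr6:8255936-8259173) was at 34.4, 38.2, 35.6, 40.7 and 39.3 CPM in vehicle and 33.7, 28.8, 36.3, 32.5 and 36.9 CPM in KW6002 tumors. Cisplatin tumors had 34.2, 36.4, 31.8, 31.2 and 31.1 CPM and cotreated tumors 31.5, 30.2, 30.6, 31.8 and 32.3 CPM. The cotreated tumors were below all vehicle tumors but overlapped both other groups. Its values were -0.19 for cisplatin (adjusted P = 0.0574), -0.27 for cotreatment (adjusted P = 0.0042) and -0.07 between them (edgeR), and its interaction estimate, 0.09, was one of 2 above 0.

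Lagging strand maturation. Fen1 trims the flaps of Okazaki fragments and Lig1 joins them. Neither was called, and both were lower after cotreatment against vehicle on adjusted P alone. Fen1 (ENSMUSG00000024742, chr19:10199132-10204169) was at 73.3, 63.2, 77.6, 62.9 and 71.8 CPM in vehicle and 71.7, 64.9, 75.8, 71.5 and 62.9 CPM in KW6002 tumors. It was at 66.7, 67.5, 74.3, 82.6 and 71.5 CPM after cisplatin and 50.3, 59.6, 56.5, 63.2 and 63.5 CPM after cotreatment. The cotreated tumors were below all cisplatin tumors and overlapped the vehicle tumors, with values of 0.06 for cisplatin, -0.25 for cotreatment (adjusted P = 0.0153) and -0.31 between them (adjusted P = 0.0223, edgeR). Lig1 (ENSMUSG00000056394, chr7:13277283-13311433) was at 114, 97.4, 120.2, 105 and 112 CPM in vehicle and 121, 98.4, 109.7, 108 and 97.3 CPM in KW6002 tumors. It was at 94.7, 105, 93.0, 118 and 112 CPM after cisplatin and 81.5, 101, 82.1, 92.9 and 95.6 CPM after cotreatment. The 4 groups of Lig1 overlapped, and its cotreatment value was -0.28 against vehicle (adjusted P = 0.00974, edgeR).

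Nucleotide supply. Tyms, which makes thymidylate, was called lower after cotreatment against vehicle and against cisplatin, whereas both subunits of ribonucleotide reductase, Rrm1 and Rrm2, and Dut, which clears dUTP, were not. Tyms (ENSMUSG00000025747, chr5:30058202-30073617) was at 36.2, 34.8, 38.4, 35.5 and 38.0 CPM in vehicle and 37.4, 33.7, 39.1, 35.3 and 31.6 CPM in KW6002 tumors. It was at 29.6, 31.3, 31.7, 36.5 and 31.5 CPM after cisplatin and 19.0, 22.3, 20.1, 27.8 and 24.0 CPM after cotreatment. The 5 cotreated tumors lay below the other 15, with replicates 1 and 3 lowest. Tyms fell by 38% against vehicle (-0.69, SE 0.0867, adjusted P = 5.25e-06) and by 29.4% against cisplatin (-0.50, SE 0.0866, adjusted P = 0.00273, edgeR), the latter the largest difference of any member in that comparison, and the cisplatin value was -0.19 (adjusted P = 0.143, edgeR).

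Rrm2 (ENSMUSG00000020649, chr12:24708241-24714146) was at 105, 82.7, 91.8, 105 and 93.1 CPM in vehicle and 103, 80.1, 89.4, 87.9 and 79.8 CPM in KW6002 tumors. It was at 87.5, 117, 105, 118 and 93.6 CPM after cisplatin and 75.1, 107, 83.0, 82.3 and 105 CPM after cotreatment. The 4 groups overlapped, with differences of 0.13 for cisplatin (SE 0.106, adjusted P = 0.435) and -0.08 for cotreatment (SE 0.106, adjusted P = 0.597, edgeR). It was the only member above 0 in cotreatment against KW6002, at 0.04. Rrm1 was at -0.29 (adjusted P = 0.00335) and Dut at -0.13 (adjusted P = 0.173, edgeR) after cotreatment.

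Chromatin and histone supply. All 5 genes of this role were called lower after cotreatment against vehicle: Uhrf1, which brings DNA methylation to new DNA, Chaf1a and Chaf1b, subunits of the factor that loads histones behind the fork, Slbp, which binds histone mRNA, and Hells, a chromatin remodeler. The values ran from -0.33 for Chaf1a, next to the fold limit, to -0.47 for Hells. Chaf1b was also called against cisplatin, at -0.37 (adjusted P = 0.0403, edgeR), from 22.0 ± 1.53 to 17.1 ± 2.22 CPM (SD, n = 5).

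Slbp (ENSMUSG00000004642, chr5:33634952-33652574) was at 52.4, 50.5, 51.5, 58.4 and 55.2 CPM in vehicle and 55.6, 52.7, 55.1, 52.5 and 58.7 CPM in KW6002 tumors. Cisplatin tumors had 46.9, 48.1, 47.2, 54.6 and 45.4 CPM and cotreated tumors 41.7, 40.7, 37.4, 42.2 and 45.4 CPM. All cotreated tumors were below all others, the highest of them next to the lowest cisplatin tumor. The log2 fold change was -0.37 for cotreatment (adjusted P = 8.37e-05) and -0.22 against cisplatin (adjusted P = 0.03, edgeR). Hells (ENSMUSG00000025001, chr19:38930915-38971051) was at 122, 122, 137, 145 and 130.1 CPM in vehicle and 139, 115, 127, 125 and 133 CPM in KW6002 tumors. It was at 106, 123, 106, 107 and 110.1 CPM after cisplatin and 94.9, 92.2, 89.4, 95.1 and 101 CPM after cotreatment. Here too the cotreated tumors lay below all others, and cisplatin replicate 2 alone reached the vehicle range. Hells was at -0.25 for cisplatin (adjusted P = 0.00766), -0.47 for cotreatment (adjusted P = 7e-06) and -0.22 between them (adjusted P = 0.0333, edgeR).

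E2F. E2f1 (ENSMUSG00000027490, chr2:154559407-154569892), a factor that turns on S phase genes, was at 57.6, 51.1, 56.4, 52.5 and 53.3 CPM in vehicle and 53.8, 53.7, 57.1, 54.6 and 45.5 CPM in KW6002 tumors. It was at 47.8, 45.5, 49.8, 51.5 and 53.7 CPM after cisplatin and 42.2, 41.4, 39.4, 45.9 and 47.8 CPM after cotreatment. Cotreated tumors were below all vehicle tumors and overlapped KW6002 and cisplatin tumors. The log2 fold change for cotreatment was -0.32 (SE 0.0659, adjusted P = 0.000706, edgeR), at the fold limit, and the call was lost in 22 of 30 other settings, for example at -0.31 with DESeq2 and at -0.28 without cotreated replicate 3 or vehicle replicate 1. Over the 30 settings the cotreatment value ran from -0.35 to -0.17, with an adjusted P of up to 0.251 (edgeR). For cisplatin the log2 fold change was -0.13 (adjusted P = 0.195, edgeR). Members whose promoter holds an E2F motif had a median cotreatment value of -0.42 (16 members) and matched members without one -0.27. Of the members called lower after cotreatment and matched to a promoter, 9 of 19 hold a motif, beside 16 of all 39 matched members.

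Other genes of the cell cycle were also tested, as lists that the 48 genes do not hold. Beside these lists, 4.57% of all genes were called lower after cisplatin, 10.4% after cotreatment and 1.71% in cotreatment against cisplatin. Of 30 other replication factors 3 were called lower after cisplatin, 6 after cotreatment (20%, median -0.13) and 1 in cotreatment against cisplatin, with 0 called higher. The 3 with the smallest P values against vehicle were Dna2, a nuclease of lagging strand maturation (-0.52, adjusted P = 3.24e-05), Rif1, a regulator of origin timing (-0.46, adjusted P = 0.000176), and Donson, a helicase assembly factor (-0.50, adjusted P = 0.000177, edgeR). Dna2 was also called against cisplatin at -0.40. Rif1 and Donson were already called lower after cisplatin alone, at -0.41 and -0.32, and were not called against cisplatin. Of 23 other S phase and E2F target genes 8 were called lower after cotreatment (34.8%, median -0.24) and 2 against cisplatin, among them Nasp, a histone chaperone (-0.55 and -0.36). Also among the 8 were Dnmt1, the maintenance DNA methyltransferase (-0.39), and Samhd1, which degrades dNTPs (-0.32). Samhd1 was already at -0.29 after cisplatin alone (adjusted P = 0.000443, edgeR), short of the fold limit, and at -0.03 in cotreatment against cisplatin. Dnmt1 was at -0.19 and -0.20 in these comparisons. After cisplatin alone 1 of the 23 was lower and 1 higher, Tk1, a thymidine kinase, at 0.35 (adjusted P = 0.0499, edgeR).

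Genes of G2 phase and mitosis were lowered in 9 of 30 cases after cotreatment against vehicle (30%, median -0.14), in 0 after cisplatin (edgeR, with 5 lower and 2 higher, Ccnf and Foxm1, at an unadjusted P under 0.05, and 0 lower by DESeq2) and in 1, Kif23, against cisplatin. The shares of all genes called lower in these comparisons were 10.4%, 4.57% and 1.71%. Mki67, a marker of cycling cells, was at -0.60 after cotreatment (adjusted P = 5.99e-05) and -0.31 after cisplatin (adjusted P = 0.0304, edgeR), the latter short of the fold limit. Cenpe, a kinetochore motor, was at -0.45 and Kif23, a motor of cytokinesis, at -0.48 after cotreatment. With KW6002 alone the median of this list was -0.15 with 29 of 30 below 0 and 0 called (edgeR and DESeq2, 4 at an unadjusted P under 0.05). Against KW6002 the cotreatment median was 0.00, with 2 called lower (10.7% of all genes were). Of 16 p53 target genes, which respond to DNA damage, 14 were called higher after cisplatin and 14 after cotreatment, with medians of 0.69 and 0.71, and 0 changed between the 2 treatments (edgeR, 1 at an unadjusted P under 0.05, 0 by DESeq2, median 0.03). Mdm2, for example, was at 0.69 and 0.70, and Sesn2 at 0.85 and 0.89. Among all genes 6.01% were called higher after cisplatin and 13.1% after cotreatment.

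**Figure D4:**
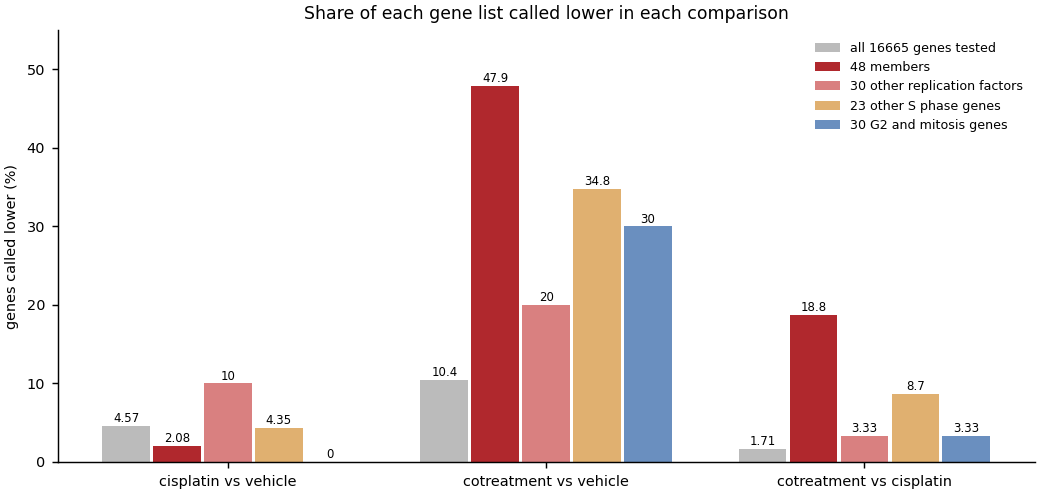
Percentage of genes called lower in each comparison, for all 16665 genes tested, the 48 members, 30 other replication factors, 23 other S phase genes and 30 G2 and mitosis genes. The members' bar is at 47.9% in cotreatment against vehicle and 18.8% in cotreatment against cisplatin, and at 2.08% in cisplatin against vehicle.

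The members span 3.24 to 327 kb of genome, with Pola1 the longest and a median of 16.7 kb. The Spearman correlation of span with log2 fold change was -0.35 over the 48 genes for cisplatin against vehicle (-0.11 over 16654 genes), -0.26 for cotreatment against vehicle (0.01 over all) and -0.01 for cotreatment against cisplatin (0.12 over all). These correlations are across genes that share the same tumors and are descriptive. The 24 longer and 24 shorter members had medians of -0.14 and -0.10 for cisplatin, -0.37 and -0.26 for cotreatment against vehicle, and -0.19 and -0.21 for cotreatment against cisplatin.

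Markers of other cells moved with cisplatin as well. Summed over 7 endothelial markers, levels were 149 to 220.4 CPM in vehicle, 75.3 to 101.9 CPM in cisplatin and 74.1 to 115 CPM in cotreated tumors. All 7 were called lower after cisplatin and 6 after cotreatment, and 1 was called higher in cotreatment against cisplatin. For this and the next lists, 4.57% of all genes were called lower after cisplatin and 10.4% after cotreatment. Neutrophil markers (6 genes) summed to 70.9 to 138 CPM in vehicle, 26.1 to 95.4 CPM in cisplatin and 24.3 to 43.2 CPM in cotreated tumors, with 2 called lower after cisplatin and 4 after cotreatment. Red blood cell markers (5 genes) summed to 25.9 to 117 CPM in vehicle and to at most 0.11 CPM in any tumor given cisplatin. Epithelial markers of the carcinoma list (6 of 7 in the table) summed to 391 to 424 CPM in vehicle, 479 to 595 CPM in cisplatin and 467 to 547 CPM in cotreated tumors. Krt8 and Krt18 made up most of this sum. Cdh1 was at 1.24 to 3.87, 1.41 to 2.27 and 1.62 to 3.65 CPM in the same groups, and Krt7 at most at 1.03 CPM in any tumor. Macrophage markers (8 genes) gave 2266 to 3382, 3140.1 to 4319 and 2640.3 to 3836 CPM, and fibroblast markers (8 genes) 9828 to 12850.0, 8562 to 14289 and 10752 to 12252 CPM. Skeletal muscle markers (8 genes) had medians of 5.51, 152 and 15.6 CPM in vehicle, cisplatin and cotreated tumors, with single cotreated tumors from 3.81 to 1174 CPM. T and natural killer cell markers (8 genes) summed to 2.64 to 10.2, 4.01 to 13.0 and 2.93 to 5.96 CPM, and their mean log2 CPM relative to vehicle was -0.45 ± 0.776 after cisplatin and -1.02 ± 0.42 after cotreatment (SD, n = 5), with 0 called after cisplatin (edgeR, 1 at an unadjusted P under 0.05, and 1 higher by DESeq2) and 1 called lower after cotreatment. Fat markers (6 genes) had medians of 29.2, 15.4 and 51.5 CPM in vehicle, cisplatin and cotreated tumors, B cell markers (5 genes) 4.44, 4.17 and 4.52 CPM, and skin markers (5 of 6 in the table) 1.37, 1.23 and 1.18 CPM. Between cisplatin and cotreated tumors the ranges of all 11 lists overlapped. Within the cisplatin group the mean log2 CPM relative to vehicle differed by library code for several lists, at -1.83 in the earlier and -0.47 in the later run for neutrophils, -0.81 and 0.10 for fibroblasts, and 0.03 and 0.52 for macrophages (2 and 3 tumors). The part of these cells in the levels of the 48 genes was not tested.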

How the data were processed

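RNA of 20 LLC1 tumors was sequenced by the authors with a stranded poly(A) kit, as single-end reads. Per the study's methods the authors aligned reads to the mm10 mouse genome with STAR and counted uniquely aligned reads per Ensembl gene with HTSeq-count in union mode (HTSeq 0.6.1p1 and bcl2fastq 2.17.1.14 are named in the submitters' processing notes), and deposited raw counts with no normalization. The strand setting of the counting is not given in the sources used here. The 20 count columns were matched to tumors by library code and replicate number, and 0 columns were unused. Symbols and positions came from GENCODE M21 (GRCm38), which held 35142 of the 35226 identifiers.

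Counts were filtered with edgeR's filterByExpr, scaled by TMM and fitted with a quasi-likelihood model of the 4 groups over all tumors (edgeR 4.0.16, R 4.3.3). CPM values use the TMM-scaled library. Tests were two-sided, with Benjamini-Hochberg adjustment over all genes tested, and the script was tested on simulated data with known changes. Group ranges were compared without a test, and role and list medians are descriptions. Depth was 28.4 to 41 M reads per tumor. The labels do not say whether tumors of a group came from separate experiments.

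The 48 genes and the gene lists were chosen with earlier results of these data known. Values in every tumor are given for Mcm2, Pcna, E2f1 and Rrm2, for the member of each role with the smallest unadjusted P in cotreatment against cisplatin and in cisplatin against vehicle (mean count of at least 50), and for any member called with KW6002 alone or in the interaction. Other members are given by count and by the ends of their role's range, with some named as called genes or complex partners. Pathway genes named are the 3 with the smallest P against vehicle in each list and any called opposite to its list. Mdm2 and Sesn2 are among the former. Alternatives were DESeq2 1.42.0, other scalings and filters on low counts, no fold limit, a fit of the compared groups only, a term for the library codes, each code run alone, a replicate block, and leaving out each tumor.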

Additional observations from a re-analysis of the deposited data

Results flagged for a closer look

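Of 84 checks for a tumor far from the others of its group, 4 passed Dixon's 95% critical value for 5 tumors (0.71), and chance gives about 1 in 20. E2f1 was at 45.5 CPM in KW6002 replicate 5, below the other 4 tumors at 53.7 to 57.1 CPM. Rfc1 was at 93.3 CPM in cotreated replicate 2, below the others at 98.4 to 100.3 CPM. Cisplatin replicate 2 stood above its group in Pole2, at 36.7 CPM against 29.8 to 31.4 CPM, and in Hells, at 122.6 CPM against 105.5 to 110.1 CPM.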

How the results depend on the processing

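Single genes were followed through the settings for the 20 members with values in every tumor. Among these no called value turned its direction, and 5 values that were not called turned sign under 1 setting or more: Gins1 (up to 0.04) and Lig1 (0.01) in cisplatin against vehicle, Rrm2 (0.03) in cotreatment against vehicle, and Rfc1 (0.00) and Rpa3 (0.03) in cotreatment against cisplatin. Over all 48 members, in the later run alone 34 were below 0 in cisplatin against vehicle (41 with all tumors), 45 in cotreatment against vehicle and 44 in cotreatment against cisplatin (48 each with all tumors). In cisplatin against vehicle, where 1 member was called, 8 were called with no fold limit, 2 in the later run alone, and 0 to 2 when 1 tumor was left out (0 without vehicle replicate 4 or cisplatin replicate 4). In cotreatment against vehicle, where 23 were called, there were 35 with no fold limit, 10 in the later run alone (median -0.21) and 20 to 24 when 1 tumor was left out. In cotreatment against cisplatin, where 9 were called, there were 16 with no fold limit, 3 in a fit of the compared groups only, 0 in the later run alone, 4 in the earlier run alone, and 3 to 12 when 1 tumor was left out (3 without cotreated replicate 2, 4 without replicate 3, 5 without cotreated replicate 1 or cisplatin replicate 4 or 5, and 12 without cotreated replicate 4). In cotreatment against KW6002, where 19 were called, there were 32 with no fold limit and 9 in the later run alone (median -0.18). The interaction, with 0 calls by edgeR (18 members at an unadjusted P under 0.05), had 2 by DESeq2 and 0 to 2 when 1 tumor was left out (2 without cotreated replicate 4). The runs alone hold fewer tumors, and the cause of the other shifts was not tested. DESeq2, the other scalings and filters and the code term left 20 to 22 calls against vehicle and 6 to 9 against cisplatin. Replicate numbers did not pair the tumors: correlations of same-numbered tumors ran from -0.392 to 0.391 over 30 pairs, and 3 tumors correlated best with their own number. With a replicate block there were 23 calls against vehicle, 8 against cisplatin, 18 against KW6002 and 0 in the interaction. Among 1820 values of the 20 members 68 lost their call and 28 gained one. Each member had at least 167 reads per tumor.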
